A study of Mus musculus with 8 samples.

Results

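The genes described here are 10 direct targets of the transcription factor p53, measured in hindlimb long bones of mice after doxorubicin. They were taken by symbol from the deposited count table: Eda2r, Phlda3, Bax, Aen, Mdm2, Ccng1, Trp53inp1, Sesn1, Sesn2 and Zmat3. Each symbol matched 1 of the 55421 rows, and all 10 passed the filter on low counts, which left 17035 tested genes. Polyadenylated RNA came from tibiae and femurs of wild-type male C57BL/6 mice, 15 weeks old at the start. In the DoxoR group, 4 mice had received a single intraperitoneal injection of 10 mg/kg doxorubicin, and in the CTRL group 4 mice had received saline vehicle. Bones were collected on day 30, and the tibiae and femurs of a mouse gave 1 library, so each of the 8 libraries is a separate animal. The bone ends had been cut off and the marrow spun out.

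p53 is held at a low level by the ubiquitin ligase MDM2, which marks it for degradation. DNA damage, including the breaks that doxorubicin causes by trapping topoisomerase II, stabilises p53, which then binds pairs of short DNA half-sites near its target genes and raises their transcription. The targets include the brake on p53 itself, proteins that stop the cell cycle, proteins that promote cell death, and proteins that lower metabolic and oxidative stress. p53 is regulated mainly at the protein level, so the RNA of its targets is widely used as a readout of its activity.

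The p53 half-site has 10 degenerate bases, and a full response element holds a pair of them. RefSeq promoter windows (build GRCm38.p6, 250 bases before to 50 after each annotated start) were found by symbol for 8 of the 10 genes; Zmat3 and Trp53inp1 are named only. An exact match to the p53 half-site consensus lay in a window of 5 of these 8 genes (62.5%): Ccng1, Bax, Sesn1, Aen and Mdm2. The same match was present for 2582 of 27025 genes in the promoter table (9.55%). The consensus reads the same on both strands, so a search of 1 strand covers both. A pair of half-sites with the C and G of each core kept, a spacer of at most 13 bases and at most 3 mismatches in all was present for 4 of the 8 genes (Ccng1, Bax, Sesn1 and Aen), and for 17.4% of all genes. Eda2r, Phlda3 and Sesn2 held neither match in their windows, which says only that these letters are not there. The stretches that hold the matches upstream of the start are shown because p53 acts on its targets through such half-sites. That of Aen overlaps an annotated exon of Aen and is not shown. Half-sites are in capitals, and all stretches read 5′ to 3′ along the gene's own strand.
Ccng1: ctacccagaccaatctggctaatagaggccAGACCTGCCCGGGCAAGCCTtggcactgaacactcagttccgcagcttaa
Bax: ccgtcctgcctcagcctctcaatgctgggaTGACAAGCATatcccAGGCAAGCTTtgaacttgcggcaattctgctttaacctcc
Sesn1: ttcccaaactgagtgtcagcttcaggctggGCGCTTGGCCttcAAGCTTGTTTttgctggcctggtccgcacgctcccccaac
Mdm2: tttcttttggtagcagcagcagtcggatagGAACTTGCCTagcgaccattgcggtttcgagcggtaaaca
The Ccng1 stretch is chr11:40755432-40755511 on the minus strand, and its half-sites adjoin with 1 mismatch in all. The Bax stretch is chr7:45467060-45467144 on the minus strand, with a spacer of 5 bases and 2 mismatches, all in the first half-site. This stretch overlaps the annotated gene Gm45808 but no annotated exon. That of Sesn1 is chr10:41887223-41887305 on the plus strand, inside the gene and outside its annotated exons, upstream of the second of its starts; the spacer has 3 bases and the first half-site holds 2 mismatches. For Mdm2 a single half-site is shown, at chr10:117710905-117710974 on the minus strand. A match is a description of the letters; binding was not measured.

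The libraries held between 23699525 and 35747083 counts. Values are CPM, which are counts relative to the library total, scaled by TMM, a method that corrects for differences in library composition. Differences are log2 fold changes of DoxoR over CTRL with their standard error (SE) from edgeR's quasi-likelihood test, which was fitted on all tested genes with Benjamini-Hochberg adjustment over all of them. Markers of several tissues were present in every library. The summed CPM of 8 skeletal muscle markers, for example Ckm, ran from 12650 to 32960 in DoxoR and from 3889 to 22649 in CTRL bones. The 8 neutrophil markers summed to between 10120 and 21049 CPM in DoxoR and between 12662 and 22717 CPM in CTRL bones, although the label gives bone without marrow. The 7 osteoblast markers summed to between 2301 and 8170 CPM in DoxoR and between 2337 and 5181 CPM in CTRL bones. The 5 adipocyte markers had the highest median log2 difference of the 10 marker lists, 1.27, with 4 of 5 above 0, and summed to between 276 and 517 CPM in DoxoR and between 276 and 441 CPM in CTRL bones. All 7 osteoclast markers lay above 0, with a median of 0.58 and sums between 1018 and 1349 CPM in DoxoR and between 519 and 1272 CPM in CTRL bones. All 8 erythroid markers lay below 0, with a median of −0.30 and sums between 981 and 2205 CPM in DoxoR and between 1277 and 2216 CPM in CTRL bones. The median was 0.09 for 6 osteocyte, 0.06 for 6 B lymphoid and 0.10 for 5 endothelial markers. None of these markers passed the adjusted threshold in edgeR, and their part in the results below was not tested except where a value is given. In RNA from a whole bone, fewer cells of a type and less RNA per cell cannot be told apart.

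None of the 10 target genes passed the threshold of 0.05 after adjustment in edgeR (0 of 10), and the share over all tested genes was 0%. At an unadjusted p under 0.05 the count was 1 of 10, Eda2r, against 5.36% of all tested genes. DESeq2 and limma-voom also placed 0 of the 10 past the adjusted threshold, which 0.17% of all tested genes passed in DESeq2. With unadjusted p, DESeq2 counted Eda2r and Phlda3, and limma-voom counted Eda2r, against 953 and 941 of all tested genes. In 0 of the 10 genes were the groups free of overlap, against 3.59% of all tested genes. The log2 differences were above 0 for 7 of the 10, against 57.2% of all tested genes, and ran from −0.13 for Trp53inp1 to 1.09 for Eda2r. Their median was 0.19, and that of all tested genes 0.04. The adjusted p of the 10 genes lay between 0.856 and 0.913 in edgeR.

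**Figure D1:**
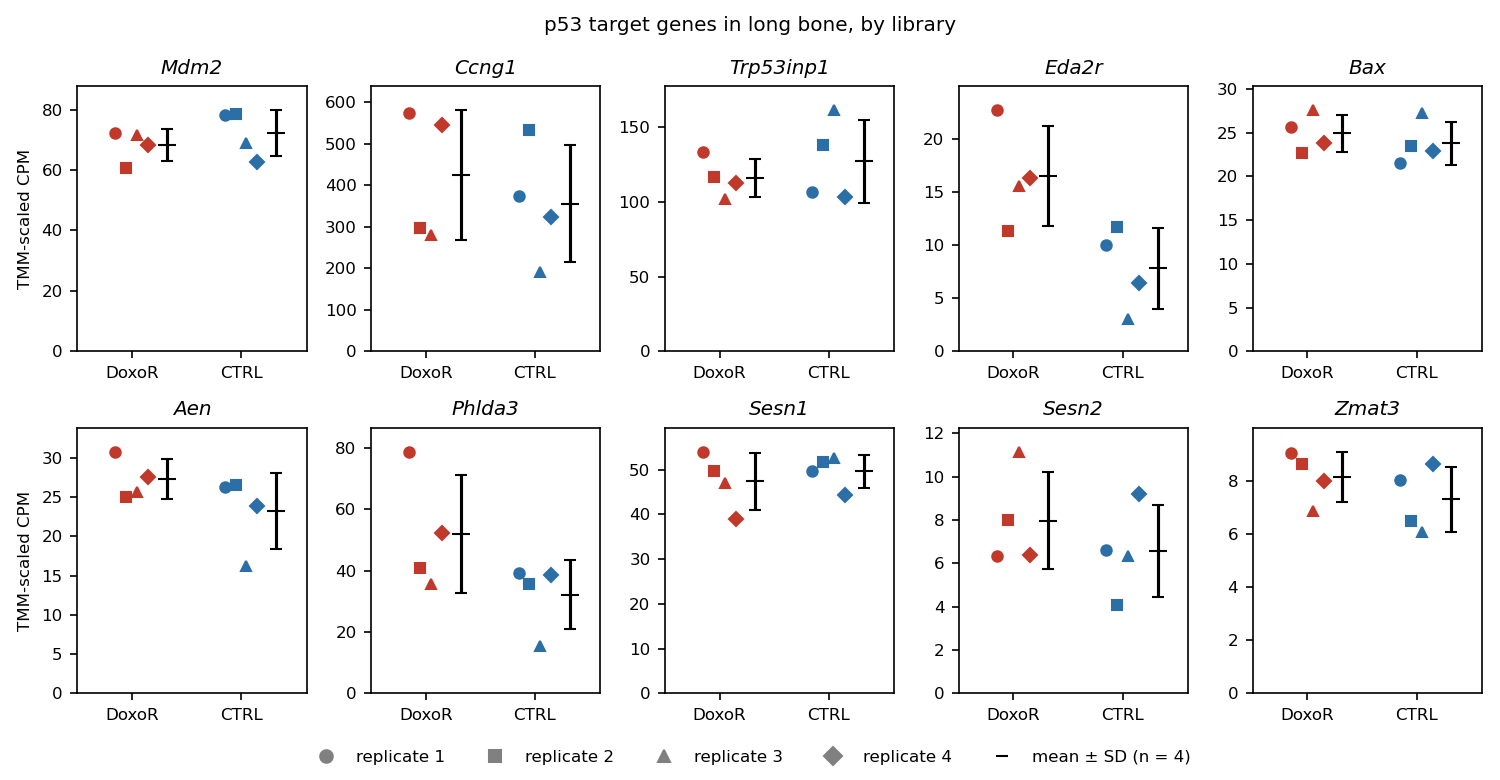
TMM-scaled CPM of the 10 p53 target genes in each library, 1 panel a gene, with DoxoR (red) left of CTRL (blue), symbols for the replicates, and a black bar for mean ± SD (n = 4). Eda2r and Phlda3 spread widely, with DoxoR 1 the highest and CTRL 3 the lowest library, whereas Mdm2, Bax and Sesn1 lie in narrow overlapping ranges.

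The 4 targets that act in cell death all had a log2 difference above 0, with 0 past the adjusted threshold in edgeR. Eda2r (ENSMUSG00000034457.10, chrX:97333840-97377216, minus strand, GENCODE M21 on GRCm38) encodes a receptor of the TNF receptor family that binds the A2 form of ectodysplasin. It measured 22.7, 11.3, 15.6 and 16.3 CPM in DoxoR 1 to 4, against 10.0, 11.7, 3.05 and 6.48 CPM in CTRL 1 to 4. All DoxoR libraries except DoxoR 2 lay above every CTRL library, and DoxoR 2 lay just under CTRL 2, so the groups overlapped by a single pair. The means were 16.5 ± 4.69 CPM in DoxoR and 7.81 ± 3.84 CPM in CTRL bones (SD, n = 4 each). The log2 difference was 1.09 ± 0.37 (SE), a 2.12-fold ratio with a 95% interval of 1.19 to 3.79. Its unadjusted p of 0.0161 in edgeR was the 310th smallest of all tested genes, and its adjusted p was 0.856 in edgeR and 0.327 in DESeq2. Without CTRL 3 the log2 difference was 0.77 and without DoxoR 1 it was 0.87. The unadjusted p was no longer under 0.05 without DoxoR 1 or without CTRL 4.

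Phlda3 (ENSMUSG00000041801.5, chr1:135766119-135769136, plus strand) encodes a small protein with a pleckstrin homology domain that competes with the kinase AKT for membrane lipids and so lowers AKT signalling. It measured 78.6, 40.9, 35.7 and 52.4 CPM in DoxoR 1 to 4, against 39.4, 35.6, 15.4 and 38.6 CPM in CTRL 1 to 4. DoxoR 1 was the highest library and CTRL 3 the lowest, while the other 6 lay between 35.6 and 52.4 CPM. The log2 difference was 0.69 ± 0.32 (SE) with an edgeR unadjusted p of 0.0608 and an adjusted p of 0.856. It was 0.41 without CTRL 3 and 0.40 without DoxoR 1.

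Aen (chr7:78895854-78911209, plus strand) encodes a nuclease that enhances apoptosis. It measured 30.7, 25.0, 25.7 and 27.6 CPM in DoxoR 1 to 4, and 26.3, 26.5, 16.3 and 23.8 CPM in CTRL 1 to 4. CTRL 3 was again the lowest library and DoxoR 1 the highest. The log2 difference was 0.23 ± 0.16 (SE), and 0.05 without CTRL 3. Bax (chr7:45461697-45466898, minus strand) encodes the pore-forming protein that opens the outer mitochondrial membrane in apoptosis. Its values were 25.6, 22.7, 27.6 and 23.8 CPM in DoxoR 1 to 4, and 21.5, 23.5, 27.2 and 22.9 CPM in CTRL 1 to 4. The groups covered nearly the same range, and CTRL 3 was here the second highest library. The DoxoR to CTRL ratio was 1.05 with a 95% interval of 0.878 to 1.25.

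Among the targets that act back on p53, none had a difference larger than the spread between libraries. Mdm2 (chr10:117688875-117710758, minus strand), the ubiquitin ligase that degrades p53 and is transcribed in response to it, measured 72.2, 60.6, 71.4 and 68.3 CPM in DoxoR 1 to 4. In CTRL 1 to 4 it measured 78.1, 78.7, 69.0 and 62.8 CPM. Its ratio was 0.944, with a 95% interval of 0.795 to 1.12. Ccng1 (chr11:40748552-40755311, minus strand) encodes cyclin G1, which recruits a phosphatase to MDM2. It was the most abundant of the 10, with 574.3, 298, 280.0 and 546 CPM in DoxoR 1 to 4 and 376, 533, 191 and 324 CPM in CTRL 1 to 4. Each group held high and low libraries. The log2 difference was 0.26 ± 0.33 (SE), with a 95% interval of the ratio from 0.711 to 2.00. It was 0.01 without CTRL 3 and −0.05 with a covariate for muscle markers, so its direction rests on the setting. Trp53inp1 (chr4:11156431-11174379, plus strand) encodes a nuclear stress protein that promotes p53 activity and autophagy. It measured 133, 116, 102 and 113 CPM in DoxoR 1 to 4, and 106, 137, 161 and 103 CPM in CTRL 1 to 4. CTRL 3 was its highest library, the reverse of its place for Eda2r, Phlda3, Aen and Ccng1. The log2 difference was −0.13 ± 0.16 (SE), and −0.03 without CTRL 3.

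The sestrins, stress proteins that restrain mTORC1 through the GATOR complexes, lay on opposite sides of 0. Sesn1 (chr10:41809935-41908424, plus strand) measured 53.9, 49.7, 46.9 and 39.0 CPM in DoxoR 1 to 4, and 49.7, 51.8, 52.6 and 44.4 CPM in CTRL 1 to 4. Its ratio was 0.956 with a 95% interval of 0.794 to 1.15. Sesn2 (chr4:132492032-132510501, minus strand), which is also induced by amino acid shortage and oxidative stress, measured 6.35, 7.99, 11.1 and 6.38 CPM in DoxoR 1 to 4. In CTRL 1 to 4 it measured 6.63, 4.06, 6.35 and 9.22 CPM. DoxoR 3 was its highest library and CTRL 2 its lowest, and the log2 difference of 0.28 ± 0.26 (SE) was 0.05 without DoxoR 3. Zmat3 (chr3:32334792-32366014, minus strand) encodes a zinc finger protein that binds RNA. It measured 9.05, 8.65, 6.88 and 7.99 CPM in DoxoR 1 to 4, and 8.06, 6.49, 6.09 and 8.64 CPM in CTRL 1 to 4. The groups overlapped, and the log2 difference was 0.15 ± 0.16 (SE), which was 0.03 without CTRL 3.

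**Figure D2:**
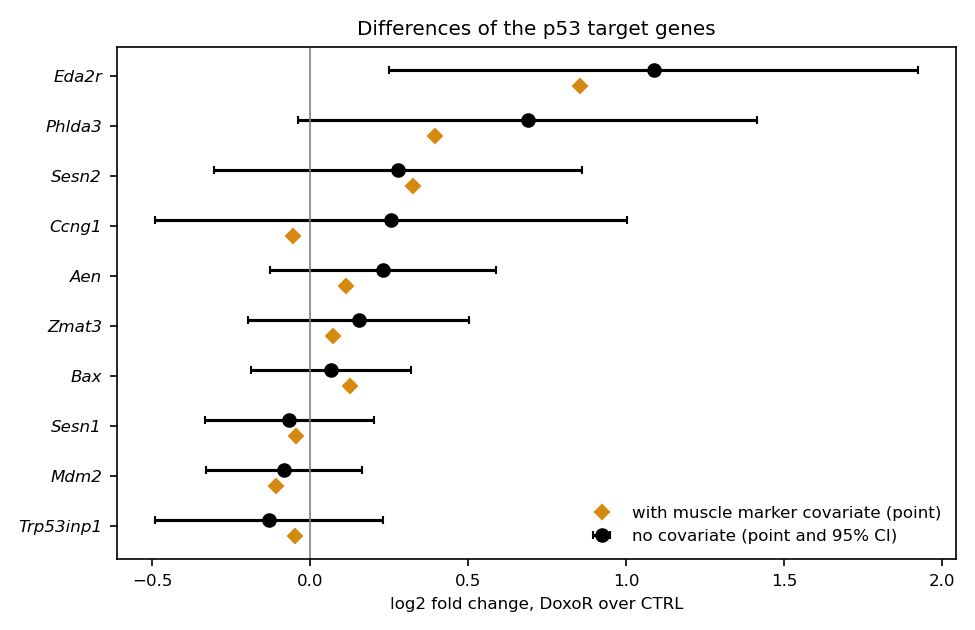
Log2 fold change of DoxoR over CTRL for the 10 genes on the horizontal axis (black point, edgeR, with its 95% confidence interval) and the same with the mean log2 CPM of muscle markers as a covariate (orange diamond, no interval drawn). The interval of Eda2r alone lies above 0 before adjustment; with the covariate Eda2r stands at 0.85, Phlda3 at 0.40 and Ccng1 at −0.05.

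Per kilobase of annotated exon, Ccng1 had the highest level of the 10, at 121 ± 44.7 CPM per kb in DoxoR and 101 ± 40.3 CPM per kb in CTRL bones (SD, n = 4 each). Phlda3 followed at 33.3 ± 12.3 in DoxoR and 20.7 ± 7.27 CPM per kb in CTRL bones. In DoxoR bones every library of Phlda3 lay above every library of Trp53inp1, whereas in CTRL bones these neighbours overlapped. Trp53inp1, Bax, Mdm2 and Sesn1 came next, between 17.9 and 11.9 CPM per kb in DoxoR and between 19.6 and 12.5 CPM per kb in CTRL bones. Mdm2 and Sesn1 overlapped in each group, as did Trp53inp1 and Bax, and Bax and Mdm2 overlapped in CTRL bones. Aen stood at 4.70 ± 0.440 in DoxoR and 4.00 ± 0.825 CPM per kb in CTRL bones, separated from its neighbours in each group. Eda2r averaged above Sesn2 in DoxoR bones and below it in CTRL bones. Eda2r was at 2.80 ± 0.797 and Sesn2 at 2.29 ± 0.646 CPM per kb in DoxoR bones. In CTRL bones Eda2r was at 1.33 ± 0.652 and Sesn2 at 1.89 ± 0.607 CPM per kb. Their libraries overlapped in each group, so this order is not fixed by these data. Zmat3 was the lowest, at 0.712 ± 0.0828 in DoxoR and 0.640 ± 0.107 CPM per kb in CTRL bones, where its libraries overlapped those of Eda2r.

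The spread between mice of a group split the genes. The coefficient of variation of Mdm2 was 7.77% in DoxoR and 10.6% in CTRL bones, that of Bax 8.60% in DoxoR and 10.2% in CTRL, and that of Sesn1 13.3% in DoxoR and 7.46% in CTRL. For Eda2r it was 28.5% in DoxoR and 49.2% in CTRL bones, for Phlda3 36.8% in DoxoR and 35.2% in CTRL, and for Ccng1 37.0% in DoxoR and 39.8% in CTRL. Over the 8 libraries the highest value of Eda2r was 7.45 times its lowest, that of Phlda3 5.10 times and that of Ccng1 3.01 times, while the ratio was 1.28 for Bax. DoxoR 1 was the highest library for 6 of the 10 genes, and CTRL 3 the lowest for 5. These libraries were also those with the highest and the lowest level of skeletal muscle markers, with a mean log2 CPM of 11.9 in DoxoR 1 and 8.84 in CTRL 3.

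Across the 8 libraries, Ccng1, Aen, Phlda3 and Eda2r were higher where muscle markers were higher. For 10 genes against 10 marker lists, 100 relations of log2 CPM were computed with exact permutation tests over all 40320 pairings, two-sided and with Benjamini-Hochberg adjustment over the 100. Ccng1 had a Pearson r of 0.90 with the muscle markers (exact permutation p = 0.000322, adjusted p = 0.0322) and a Spearman rho of 0.98 (exact permutation p = 0.000397, adjusted p = 0.0397). It was the 1 relation of the 100 past the threshold, and r was 0.83 without CTRL 3 and DoxoR 3, the libraries farthest from the median. Aen had r = 0.95 (exact permutation p = 0.00345, adjusted p = 0.115) and rho = 0.88 (exact permutation p = 0.00724, adjusted p = 0.357), with r = 0.83 without the same libraries. Phlda3 had r = 0.93 (exact permutation p = 0.00134, adjusted p = 0.0670) and rho = 0.76 (exact permutation p = 0.0368, adjusted p = 0.459), with r = 0.78 without them. Eda2r had r = 0.81 (exact permutation p = 0.0280, adjusted p = 0.320) and rho = 0.64 (exact permutation p = 0.0962, adjusted p = 0.605), with r = 0.69 without them. Zmat3 had r = 0.70 (exact permutation p = 0.0314, adjusted p = 0.320) and rho = 0.52 (exact permutation p = 0.197, adjusted p = 0.614). Its r was 0.13 without them. Mdm2 had r = 0.17 (exact permutation p = 0.700, adjusted p = 0.871) and rho = 0.33 (exact permutation p = 0.428, adjusted p = 0.738). Bax lay in the other direction, with r = −0.53 (exact permutation p = 0.176, adjusted p = 0.611) and rho = −0.29 (exact permutation p = 0.501, adjusted p = 0.795). Without those libraries the r of Bax was 0.66, so its sign rests on them. Over all lists, 11 of the 100 relations had an unadjusted exact permutation p under 0.05 for r. They included Zmat3 with neutrophil (r = −0.77), Sesn2 with osteoclast (r = 0.78) and Ccng1 with erythroid markers (r = −0.73). The adjusted exact permutation p of these was 0.320, 0.320 and 0.387. After each group's mean was removed, r with the muscle markers was 0.89 for Ccng1, 0.96 for Aen, 0.96 for Phlda3 and 0.88 for Eda2r. Permuted within groups there are 576 pairings and the smallest p is 0.00174, so a lone relation of the 100 cannot come below an adjusted p of 0.174 and the adjusted test gives no verdict on these values.

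**Figure D3:**
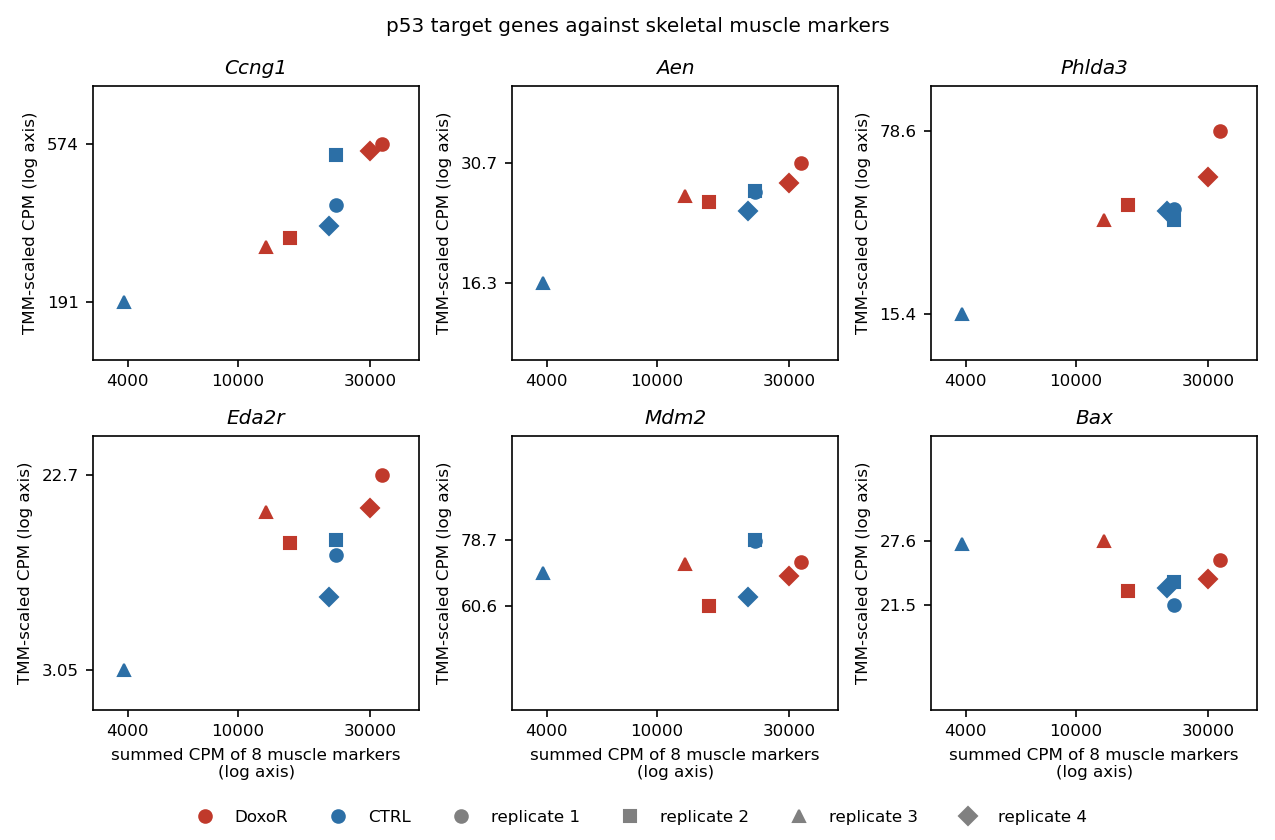
TMM-scaled CPM of 6 of the genes (vertical log axis, ticks at the lowest and highest library) against the summed CPM of 8 muscle markers (horizontal log axis), 1 symbol a library, DoxoR red and CTRL blue. Ccng1, Aen, Phlda3 and Eda2r climb from CTRL 3 at the left to DoxoR 1 at the right, while Mdm2 and Bax show no such slope. For Eda2r the CTRL libraries between 21375 and 22649 CPM of muscle markers lie below DoxoR 4, at 29855, and DoxoR 1, at 32960. The same CTRL libraries also lie below DoxoR 3, at 12650. DoxoR 2, at 15336, lies above CTRL 1 and CTRL 4 and below CTRL 2.

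The muscle markers themselves did not pass the edgeR test between the groups, with adjusted p of at least 0.875 in edgeR, but all 8 lay above 0 with a median log2 difference of 0.40. With their mean log2 CPM as a covariate, the log2 difference of Eda2r was 0.85 with an edgeR unadjusted p of 0.00288 and an adjusted p of 0.697. That of Phlda3 was 0.40 with an edgeR unadjusted p of 0.0118 and an adjusted p of 0.842. The difference of Aen was then 0.11, that of Zmat3 0.07 and that of Ccng1 −0.05. With CTRL 3 and DoxoR 1 both left out, the log2 difference was 0.62 for Eda2r, 0.18 for Phlda3 and −0.13 for Ccng1. The edgeR unadjusted p was then 0.0279 for Eda2r and 0.276 for Phlda3. With the neutrophil and erythroid markers as a covariate, Eda2r stood at 0.99 (edgeR unadjusted p = 0.0251) and Phlda3 at 0.47 (edgeR unadjusted p = 0.117). The 7 megakaryocyte markers had a median log2 difference of −0.53 and summed to between 793 and 1246 CPM in DoxoR and between 1203 and 1919 CPM in CTRL bones. Eda2r had r = −0.87 with them (exact permutation p = 0.00707, adjusted p = 0.157) and rho = −0.83 (exact permutation p = 0.0154, adjusted p = 0.384), and r = −0.66 without CTRL 3 and DoxoR 1. Phlda3 had r = −0.89 with the same markers (exact permutation p = 0.00784, adjusted p = 0.157) and rho = −0.76 (exact permutation p = 0.0368, adjusted p = 0.459), and r = −0.49 without those libraries. Aen had r = −0.80 (exact permutation p = 0.0259, adjusted p = 0.320) and rho = −0.62 (exact permutation p = 0.115, adjusted p = 0.605), and r = −0.34 without them. The part of megakaryocyte RNA in the result was not tested.

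Among the 45 pairs of target genes, 5 had an adjusted p under 0.05 for Pearson's r and 0 for Spearman's rho, in exact permutation tests with adjustment over the 45. Eda2r and Aen had r = 0.94 (exact permutation p = 0.000719, adjusted p = 0.0212) and rho = 0.88 (exact permutation p = 0.00724, adjusted p = 0.109), with r = 0.77 without CTRL 3 and DoxoR 1. Ccng1 and Aen had r = 0.85 (exact permutation p = 0.000942, adjusted p = 0.0212) and rho = 0.90 (exact permutation p = 0.00456, adjusted p = 0.103), with r = 0.74 without those libraries. Eda2r with Phlda3 (r = 0.89, rho = 0.64), Aen with Phlda3 (r = 0.94, rho = 0.64) and Phlda3 with Zmat3 (r = 0.79, rho = 0.83) made up the 5. Their exact permutation p for r were 0.00466, 0.00285 and 0.00481 (adjusted p = 0.0433, 0.0428 and 0.0433), and those for rho 0.0962, 0.0962 and 0.0154 (adjusted p = 0.481, 0.481 and 0.173). Their r without CTRL 3 and DoxoR 1 was 0.34, 0.47 and 0.48, so these relations rest on the same pair of libraries. Mdm2, Bax, Sesn1, Sesn2 and Trp53inp1 entered none of the 5 pairs.

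Of 14784 tested genes with a mean of at least 1 CPM, those most like Eda2r over the 8 libraries by Pearson's r of log2 CPM were Cyb5b (0.98), Mustn1 (0.98), Polr2l (0.98), Ahsa1 (0.98) and Apopt1 (0.97). Mustn1, a small protein of the musculoskeletal system, measured 76.6, 39.3, 54.2 and 48.7 CPM in DoxoR 1 to 4, and 34.9, 49.8, 17.4 and 28.8 CPM in CTRL 1 to 4. It showed the same high DoxoR 1 and low CTRL 3. By this measure Aen ranked 22nd, Phlda3 107th and Ccng1 940th, while Mdm2 ranked 5236th. These r are a description over 8 points that share library composition.

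The rest of the pathway was compared by lists of named genes. Of 68 tested genes outside the 10, 0 were higher and 0 lower past the adjusted threshold in edgeR. At an unadjusted p under 0.05, 0 were higher and 3 lower (Thbs1, Chek1 and Plk3), against 5.36% of all tested genes in either direction. The groups did not overlap in 2 of the 68, Ppm1d and Thbs1, against 3.59% of all tested genes. In total 30 of the 68 lay above 0 and 38 below, against 57.2% of all tested genes above 0, with a median log2 difference of −0.02 beside 0.04 for all tested genes. Trp73 and Phlda2 did not pass the filter on low counts, and the symbol Kitlg matched no row and was not used here.

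Trp53, which encodes p53, measured 18.7, 26.6, 26.8 and 20.6 CPM in DoxoR 1 to 4, and 23.8, 21.1, 21.3 and 27.2 CPM in CTRL 1 to 4. The groups overlapped over nearly their whole range, and the log2 difference was −0.01 ± 0.15 (SE). Among the 11 tested genes of p53, its family and its regulators, 5 lay above and 6 below 0. Ppm1d, a phosphatase that turns the damage response off and is itself a p53 target, measured 19.7, 19.5, 20.8 and 16.0 CPM in DoxoR 1 to 4, against 21.0, 21.8, 24.8 and 22.1 CPM in CTRL 1 to 4. Each DoxoR library lay below each CTRL library, with a log2 difference of −0.24 ± 0.12 (SE) and an edgeR adjusted p of 0.856. Chek1, a checkpoint kinase, averaged 10.7 ± 1.82 CPM in DoxoR and 14.0 ± 2.38 CPM in CTRL bones, and Trp63, a relative of p53, 2.82 ± 0.892 CPM in DoxoR and 1.57 ± 0.761 CPM in CTRL bones (SD, n = 4 each).

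Of the 8 other targets of cell cycle arrest, 3 lay above and 5 below 0. Cdkn1a, which encodes p21, the inhibitor through which p53 halts the cycle, measured 38.9, 40.6, 20.2 and 16.8 CPM in DoxoR 1 to 4, and 58.7, 40.6, 16.7 and 19.9 CPM in CTRL 1 to 4. High and low libraries occurred in each group, and the log2 difference was −0.22 ± 0.43 (SE), or 0.18 without CTRL 1. Plk3, a stress-activated kinase, averaged 3.43 ± 0.496 CPM in DoxoR and 5.37 ± 2.45 CPM in CTRL bones, and Btg2, an antiproliferative protein, 79.2 ± 14.3 CPM in DoxoR and 101 ± 20.0 CPM in CTRL bones (SD, n = 4 each). Plk3 was at 8.96 CPM in CTRL 1, and its log2 difference of −0.64 was −0.28 without that library.

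The 8 other death targets had the narrowest range of the 4 lists of other targets, from −0.20 for Tnfrsf10b to 0.16 for Ei24 on the log2 scale, 4 above and 4 below 0. Bbc3, which encodes the BH3-only protein PUMA, averaged 4.78 ± 0.556 CPM in DoxoR and 4.97 ± 0.812 CPM in CTRL bones, and Fas, a death receptor, 10.2 ± 1.52 CPM in DoxoR and 9.83 ± 2.38 CPM in CTRL bones (SD, n = 4 each). The 13 targets of DNA repair and metabolism had a median of 0.0078, with 7 above and 6 below 0. Ddit4, an inhibitor of mTORC1, averaged 28.4 ± 18.0 CPM in DoxoR and 52.3 ± 42.1 CPM in CTRL bones, and Xpc, which recognises DNA lesions, 27.6 ± 4.91 CPM in DoxoR and 24.6 ± 3.27 CPM in CTRL bones (SD, n = 4 each).

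The 4 tested secreted targets had a median log2 difference of −0.28, with 2 above and 2 below 0. Thbs1, a matrix protein that platelets store, measured 290.1, 310.0, 193 and 198 CPM in DoxoR 1 to 4, against 584, 526, 341 and 323 CPM in CTRL 1 to 4. Each DoxoR library lay below each CTRL library, with a log2 difference of −0.84 ± 0.24 (SE) and an edgeR adjusted p of 0.825. The part of megakaryocytes, the source of platelets, whose markers had a median log2 difference of −0.53, was not tested for Thbs1. Gdf15, a stress cytokine induced by p53, averaged 1.46 ± 0.259 CPM in DoxoR and 2.31 ± 1.25 CPM in CTRL bones (SD, n = 4 each).

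Relatives and partners of the 10 genes had a median of 0.04, with 8 of 14 above 0. Bak1, a pore-forming relative of Bax, averaged 43.0 ± 10.3 CPM in DoxoR and 34.7 ± 2.41 CPM in CTRL bones, and Wdr24, a subunit of the GATOR2 complex that sestrins bind, 12.6 ± 0.785 CPM in DoxoR and 10.6 ± 1.45 CPM in CTRL bones (SD, n = 4 each). Of the 10 proliferation genes that fall when p53 and p21 are active, 9 lay below 0 and 1 above, against 57.2% of all tested genes above 0, with a median of −0.13 and a lowest value of −0.28 for Mki67. With the neutrophil and erythroid markers as a covariate, Mki67 stood at −0.15, Ccna2 at −0.06 and Top2a at −0.04. Without CTRL 3 and DoxoR 1, Mki67 stood at −0.12, Ccna2 at −0.0044 and Top2a at 0.02. The differences were larger without DoxoR 3, at −0.59 for Mki67, −0.46 for Ccna2 and −0.37 for Top2a. The erythroid markers, from a lineage that divides in marrow, had a median log2 difference of −0.30. Mki67 averaged 777 ± 290 CPM in DoxoR and 943 ± 78.3 CPM in CTRL bones (SD, n = 4 each), and DoxoR 3, at 1207 CPM, was the highest of all 8 libraries.

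**Figure D4:**
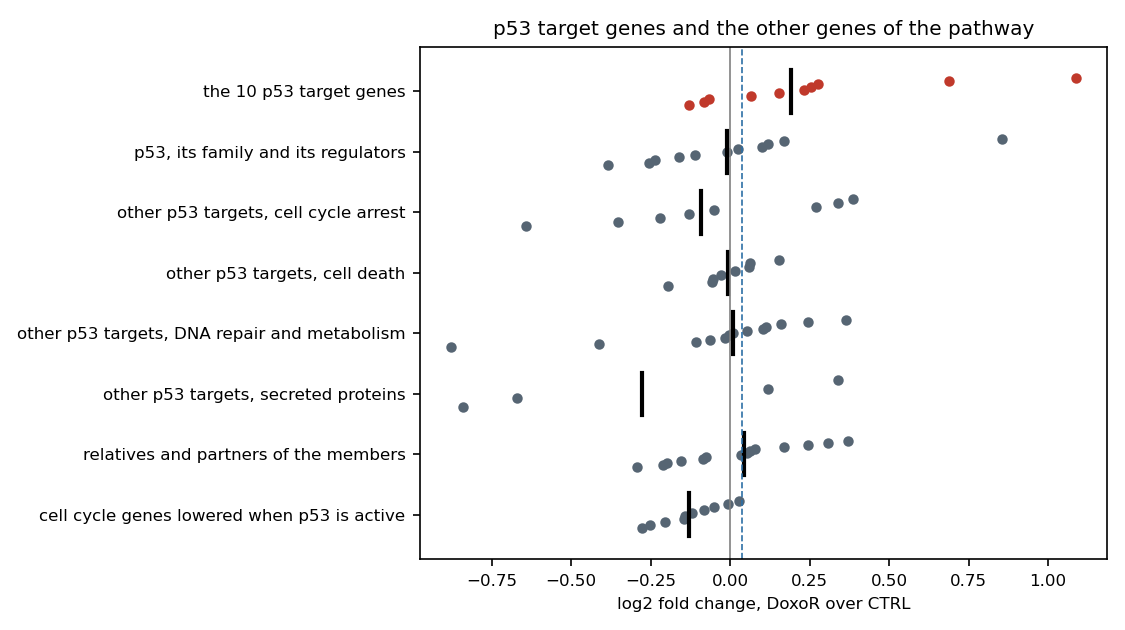
Log2 fold change of DoxoR over CTRL for each tested gene of the 10 p53 target genes (red, top) and of 7 lists of other pathway genes (grey), 1 point a gene; black bars are list medians, the grey line is 0 and the dashed line the median of all tested genes. The 10 genes reach from −0.13 to 1.09, and the lowest points are Ddit4 at −0.88 and Thbs1 at −0.84.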

How the data were processed

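The authors deposited expected counts per gene for 8 libraries, as whole numbers, in 1 table whose 8 columns all matched a sample's description. Per the submitters' processing notes, STAR 2.5.3a and RSEM 1.3.0 were used with GRCh38, a human build, whereas the identifiers are mouse genes; annotation release, strand setting and use of the molecular identifiers were not stated in the sources used here. Per the labels' protocols the libraries were stranded and poly-A selected. Reads are not taken as independent molecules.

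Counts were tested with edgeR 4.0.16 in R 4.3.3 (filterByExpr with a minimum count of 10 and minimum total of 15, TMM, robust quasi-likelihood test, two-sided, no covariate). The biological coefficient of variation was 0.219. DESeq2 1.42.0, limma-voom (limma 3.58.1), other scalings and filters, covariates, a replicate block and leaving out each library were alternatives. The fit was tested on simulated data. Log2 CPM used a prior count of 2. Over 28 library pairs, chi-square per degree of freedom was at least 28.8, so no libraries agreed within sampling noise. Gene positions and exon lengths came from GENCODE M21 (GRCm38), whose identifiers and versions were those of the table for all 10 genes. An overlapping annotated gene (of Bax, Sesn1 or Sesn2) took at most 55 counts in a library.

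The 10 genes and all lists were chosen with earlier results of these data known; 1 listed gene is not reported here and was left out of all list counts. The rule for named genes took all 10, Trp53, Cdkn1a, at most 4 genes of each pathway list by smallest p (not all are described), and the 5 genes most like the member with the smallest p. Sequences are from RefSeq promoters on GRCm38.p6.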

Additional observations from a re-analysis of the deposited data

Results flagged for a closer look

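Among 80 groups of 4 libraries examined (40 named genes in DoxoR and in CTRL bones), 3 held a library whose gap to the nearest other exceeded 0.829 of the group's range; chance gives about 1 in 20. Phlda3 was at 15.4 CPM in CTRL 3, while the other CTRL libraries lay between 35.6 and 39.4 CPM. Tigar, a p53 target that lowers glycolysis, was at 11.3 CPM in CTRL 3, against 28.0 to 29.7 CPM in the other CTRL libraries. Bbc3 was at 6.18 CPM in CTRL 4, against 4.49 to 4.71 CPM in the others. CTRL 3 was also the library with the lowest muscle marker level. The log2 difference of Tigar was 0.36, but 0.09 with the muscle covariate and 0.03 without CTRL 3 and DoxoR 1. For Phlda3 these values were 0.69, 0.40 and 0.18. The cause of the low CTRL 3 values of Phlda3 and Tigar was not tested.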

How the results depend on the processing

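With 4 mice a group, the 95% intervals of Mdm2, Bax and Sesn1 were narrow and those of Eda2r, Phlda3 and Ccng1 wide. Of the 10 genes, 0 passed the adjusted threshold under any alternative run, and 0 of the other pathway genes did. All genes past it numbered 0, but 29 with DESeq2 and 1 with no filter on low counts. All genes with an unadjusted p under 0.05 numbered 913, and between 639 and 1800 with a library left out. Their number was 953 with DESeq2, 953 with the muscle covariate, 686 with library size only and 1466 with the replicate block. The target genes with an unadjusted p under 0.05 numbered 1, but 2 (Eda2r and Phlda3) with DESeq2, library size only, the muscle covariate or the replicate block, and between 0 and 2 with a library left out, 0 without DoxoR 1 or CTRL 4. Those without overlap numbered 0, but 1 (Eda2r) with library size only, and between 0 and 1 with a library left out. Of all 17035 tested genes, 612 were without overlap, and 447 with library size only. With a library left out, between 859 and 1838 were, of between 17204 and 17360 tested genes. The relations to markers past the threshold numbered 1, and 0 on values with group means removed, where 576 pairings are too few for a lone relation to pass and r of Ccng1 with muscle was 0.89 beside 0.90. That alternative was chosen after seeing the data, as was leaving out CTRL 3 and DoxoR 1 together. The cause of the other changes was not tested.

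No label pairs same-numbered mice, and the numbers were not taken as pairs: the correlation of their deviations from the group means was 0.34, −0.27, 0.43 and 0.09 for replicates 1 to 4, and the DoxoR mice 1 and 3, but not 2 and 4, correlated best with the CTRL mouse of their own number. With the replicate block the log2 difference was 1.19 for Eda2r (edgeR unadjusted p = 0.00814) and 0.71 for Phlda3 (edgeR unadjusted p = 0.00432), and no target gene passed the adjusted threshold.

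Some log2 differences turned sign. Ccng1 was at −0.053 with the muscle covariate and −0.13 without CTRL 3 and DoxoR 1, where Lif was at −0.016, Top2a at 0.019, Trp53 at 0.035 and Trp53inp2 at −0.0037. The marrow covariate placed Trp53 at 0.038 and Fas at −0.0077, and the muscle covariate placed Trp53 at 0.0060. With a library left out, Bax reached from −0.0088 to 0.098, Sesn1 from −0.15 to 0.018, Cdkn1a from −0.49 to 0.18, Fas from −0.12 to 0.13, Igfbp3 from −0.082 to 0.32, Bbc3 from −0.14 to 0.041, Tnfrsf10b from −0.38 to 0.078 and Trp53 from −0.11 to 0.062.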

Other observations

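Some p53 targets were higher in replicates 1 and 2 than in replicates 3 and 4 of each group, a pattern seen after the values were known and not tested. Ddit4 measured 52.0 and 32.4 CPM in DoxoR 1 and 2 and 17.4 and 11.9 CPM in DoxoR 3 and 4, and 94.2 and 82.4 CPM in CTRL 1 and 2 and 11.5 and 20.9 CPM in CTRL 3 and 4. Cdkn1a and Thbs1, whose values are given above, had the same order in each group. Eda2r, Phlda3, Mdm2 and Bax did not. The order was not particular to p53 targets, since the summed osteocyte markers had it too, alone among the marker lists. They summed to 712 and 736 CPM in DoxoR 1 and 2 and 404 and 344 CPM in DoxoR 3 and 4. In CTRL 1 and 2 they summed to 985 and 808 CPM, and in CTRL 3 and 4 to 534 and 437 CPM. Not every osteocyte marker had this order. In counts not scaled by library, Dmp1 was at 16814, 10765, 6913 and 4094 in CTRL 1 to 4. Mepe was at 2898, 2627, 5791 and 3583, so the order of the CTRL sums leans on Dmp1. The part of osteocyte RNA in the order was not tested. The labels give no batch or collection time for the mice, and same-numbered mice are not said to be paired.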
